A study of Mus musculus with 8 samples.

Results

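The nuclei described here are cardiac fibroblasts selected on 6 transcripts, among them Gfpt2 and C7. They were chosen by measured values. In every barcode with at least 800 UMIs outside mitochondrial genes, the share of UMIs from Gfpt2, Adgrd1, Adamtsl3, Has2, C7 and Hmcn2 was divided by the same share in the whole library. A barcode was a member if this enrichment was at least 3 with at least 4 UMIs of the 6 genes. It also had to exceed by more than 2 times the enrichment of Kcnip1, Bmper, Rgs17, Tll2, Gfra1 and Necab1, and to exceed that of Sntg1, Nkain3, Thsd7b, Aox3, Gria4 and Gpr39. The enrichment of the cardiomyocyte genes Ryr2 and Ttn had to be at most 1. The rule kept 9701 of 169193 barcodes, or 5.79% of the 167504 barcodes with enough UMIs. The study that reported the data used fewer nuclei per heart than most libraries hold barcodes, and kept fewer after its own quality control. Not every barcode can therefore be a separate nucleus, and members are called nuclei only for short. Shares here are thus of deposited barcodes and not of the nuclei of the study. The same rule turned around gave a second fibroblast group, led by Kcnip1 and Bmper, and another group, led by Sntg1 and Nkain3. The Sntg1 and Nkain3 group is counted below among the fibroblast groups, but it carried markers of mesothelium and its fibroblast markers were weaker.

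The hearts came from 4 WT and 4 Taz-KO mice, all 9-week-old males. Taz encodes tafazzin, the enzyme that remodels the mitochondrial phospholipid cardiolipin, and its loss causes Barth syndrome in people. The labels name no Cre or promoter for the knockout and give no strain background. Each heart was minced and cryopreserved, and its nuclei made 1 library, so the mouse is the replicate.

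Fibroblasts make and repair the collagen and elastic matrix of the heart. A fibroblast type marked in many tissues by Pi16, Dpp4 and Cd248 sits in the outer coat of vessels and is rich in hyaluronan, microfibrils and secreted complement proteins. Gfpt2 is a form of the enzyme that commits glucose to the hexosamine pathway, whose product feeds hyaluronan synthesis by Has2, and C7 is a secreted component of the membrane attack complex of complement.

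The libraries held 20025456 to 348080773 UMIs and 3492 to 36308 barcodes. The smallest deposited barcode held 3979, 6522, 3487 and 2165 UMIs in WT replicates 4686, 4909, 5355 and 5356. In Taz-KO replicates 4685, 4910, 5300 and 5301 it held 500, 3952, 2482 and 500 UMIs. The UMI minimum of the rule therefore removed barcodes only from Taz-KO replicates 4685 and 5301, which kept 3475 of 3492 and 3899 of 5571. Member shares and sums thus do not rest on a common depth cut-off. Mitochondrial genes made up 1.57% to 23.7% of the UMIs of a library and 3.24% to 27.0% of those of its members. WT replicates 4686, 4909, 5355 and 5356 gave 1564, 1765, 1594 and 1106 members. Taz-KO replicates 4910 and 5300 gave 1903 and 1453, and Taz-KO replicates 4685 and 5301, the smallest libraries, gave only 115 and 201. Members had a median of 3331 to 7021 UMIs per mouse, and the summed member counts ranged from 757235 to 13535590 UMIs. Only 7 member barcodes occurred in more than 1 library, and the log profiles of any pair of mice had an r of 0.940 to 0.994. In these sums, fewer nuclei with a transcript and less of it per nucleus cannot be told apart.

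Since the rule is relative to each library, it asked for different absolute levels. The 6 genes made up 381 to 628 counts per 1000000 UMIs (CPM) of the WT libraries and 249 to 340 CPM of the Taz-KO libraries. The threshold was therefore 1142 to 1885 CPM in WT mice and 746 to 1021 CPM in Taz-KO mice, with no overlap. Members kept at 1 level of at least 2000 CPM in every mouse were used as an alternative, chosen after the data were seen, and 25 genes passed there.

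The 6 genes of the rule varied among the mice. Gfpt2 was at 952, 676, 1002 and 858 CPM in the members of WT replicates 4686, 4909, 5355 and 5356. In Taz-KO replicates 4685, 4910, 5300 and 5301 it was at 657, 383, 458 and 996 CPM, so the genotypes overlapped. C7 was at 985, 203, 266 and 388 CPM in WT members and at 326, 737, 591 and 440 CPM in Taz-KO members, again overlapping. Adamtsl3, an ADAMTS-like protein of the matrix without protease activity, was at 647 to 928 CPM in WT and at 306 to 436 CPM in Taz-KO members. Adgrd1, an adhesion receptor, was at 485 ± 118 CPM in WT and 291 ± 72.4 CPM in Taz-KO members (SD, n = 4 each). The hyaluronan synthase Has2 was at 86.6 ± 33.0 and 66.8 ± 21.6 CPM, and hemicentin 2 (Hmcn2), a large matrix protein, at 555 ± 68.9 and 658 ± 146 CPM. These levels took part in the choice of the nuclei, so no test is given for them. Over the 8 mice, Gfpt2 averaged 748 CPM in members, 83.7 CPM in the Kcnip1 and Bmper group and 54.4 CPM in all other barcodes (the rest). C7 averaged 492, 63.7 and 35.6 CPM.

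Not every member held every gene. A Gfpt2 UMI was found in a median of 79.3% of the members of a mouse and a C7 UMI in 48.8%. In the Kcnip1 and Bmper group, of nearly the same depth (medians of 4941 UMIs against 5125 in members), the shares were 33.9% and 20.4%. In cardiomyocyte barcodes, which should lack both genes and had a median of 12019 UMIs, they were 14.0% and 7.90%. Conversely, the cardiomyocyte gene Myh6 had a UMI in 75.6% to 100% of the members of a mouse. Transcripts of another cell type were thus present in most member barcodes, and their part in the differences below was not tested unless a value is given.

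The enrichment of the 6 genes had a median of 5.85 and a range of 3 to 47.4, on a median of 13 UMIs, and 505 members passed with exactly 4 UMIs. The 584 members just inside the threshold, with enrichments of 3 to 3.3, had a median over mice of 394 CPM of Pi16. The 547 barcodes just outside it, at 2.7 to 3, had 341 CPM, against 550 CPM in all members. The edge is therefore a cut through a range of nuclei and not a gap.

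The promoters of Gfpt2 and C7, the genes that name the group, are shown for reference. Gfpt2 lies at chr11:49794178-49838613 on the plus strand and C7 at chr15:4988762-5063740 on the minus strand (GENCODE vM21, GRCm38). The windows, from RefSeq on GRCm38.p6, run from 250 bases before to 50 bases after the start of the gene and are written 5′ to 3′ on the strand of the gene, at chr11:49793905-49794204 and chr15:5063724-5064023.
Gfpt2: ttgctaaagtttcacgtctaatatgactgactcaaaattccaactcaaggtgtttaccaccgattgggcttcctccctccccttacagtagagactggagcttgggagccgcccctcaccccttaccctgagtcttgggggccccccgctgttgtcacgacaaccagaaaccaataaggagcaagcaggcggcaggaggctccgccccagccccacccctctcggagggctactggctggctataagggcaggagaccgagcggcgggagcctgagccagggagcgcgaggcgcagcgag
C7: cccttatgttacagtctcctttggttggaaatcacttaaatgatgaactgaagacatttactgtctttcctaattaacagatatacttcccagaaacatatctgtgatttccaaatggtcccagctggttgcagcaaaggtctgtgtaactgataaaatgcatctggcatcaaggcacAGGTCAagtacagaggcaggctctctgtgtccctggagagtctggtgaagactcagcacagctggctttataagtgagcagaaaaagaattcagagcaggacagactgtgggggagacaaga
The motifs searched on both strands were CACGTG (the E-box), TTATGTAA (the D-box), AGGTCA (the core bound by ROR and REV-ERB receptors) and TTGCATCA (an element bound by CEBP and ATF factors). Of 32851 promoters of this length, 7.15%, 0.938%, 16.3% and 0.895% held them. The Gfpt2 window held none of these letters, and the C7 window held AGGTCA, in capitals, 72 bases before the start.

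Gfpt2 and C7 were not carried in fixed proportion. Of the UMIs of both genes in members, C7 supplied 50.9%, 23.1%, 21.0% and 31.1% in WT replicates 4686, 4909, 5355 and 5356, and 33.2%, 65.8%, 56.3% and 30.6% in Taz-KO replicates 4685, 4910, 5300 and 5301. The highest values were those of both large Taz-KO libraries and WT replicate 4686, the lowest those of WT replicates 5355 and 4909, and the genotypes overlapped between them. Among members, 3790 held a UMI of both genes. A further 906 held at least 2 C7 UMIs and no Gfpt2 UMI, and 3048 held at least 2 Gfpt2 UMIs and no C7 UMI. In the plot of both genes by mouse, WT replicate 4686 has the highest C7 level and C7 is above Gfpt2 in that mouse and in Taz-KO replicates 4910 and 5300.

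**Figure D1:**
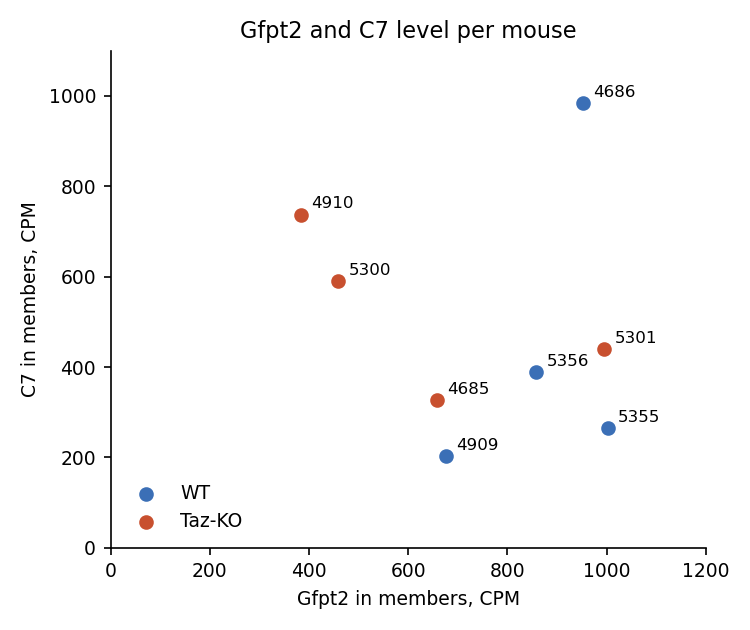
Level of C7 against level of Gfpt2 in the members, in CPM on linear axes, 1 point per mouse, labelled by mouse and coloured by genotype. C7 ranges from 203 to 985 CPM and Gfpt2 from 383 to 1002 CPM, and the genotypes overlap on both axes.

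The members with C7 alone and those with Gfpt2 alone also differed in other genes, given here as a description, since the nuclei were chosen on these 2 transcripts. In the 6 mice other than Taz-KO replicates 4685 and 5301, 294 of 7837 genes were higher on the C7 side in 6 of 6 mice and 444 were higher on the Gfpt2 side. The C7 side had more Nalcn, a sodium leak channel, at 118 against 31.2 CPM, more Dpyd, which breaks down pyrimidines, at 207 against 67.4 CPM, and more Itgbl1 at 638 against 245 CPM. Nalcn, Dpyd and Itgbl1 were at 127, 193 and 763 CPM in the Kcnip1 and Bmper group, close to the C7 side. Col4a6, a basement membrane collagen, was at 115 against 41.0 CPM on the Gfpt2 side and 38.1 CPM in the Kcnip1 and Bmper group, and was thus highest in the C7 nuclei. On the Gfpt2 side, the cell surface peptidase Dpp4 was at 137 against 55.2 CPM, the receptor tyrosine kinase Ret at 97.5 against 36.5 CPM and the mitochondrial calcium-binding protein Efhd1 at 105 against 32.5 CPM. Papln, Cmah, Ildr2, Efemp1 and Pde10a also lay on the Gfpt2 side, with median log2 ratios of -1.97, -1.86, -1.70, -1.40 and -1.28.

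Genes outside the rule also differed between the members and the other fibroblasts. Among 7836 genes with at least 20 CPM in members, 1170 were above the mean of the other fibroblast groups in all 8 mice, 66 of them by more than 1 on the log2 scale. Among genes with at least 20 CPM in the other fibroblast groups, 1231 were lower in members in all 8 mice. The gene with the highest median log2 ratio, 3.17, was Duox1, a hydrogen peroxide-producing oxidase, at 20.8 CPM in members, 1.05 CPM in the Kcnip1 and Bmper group, 1.22 CPM in the Sntg1 and Nkain3 group and 2.05 CPM in the rest. Efhd1 followed at 2.75, with 78.2 CPM in members against 8.75, 12.5 and 7.83 CPM. The Has2 antisense transcript Has2os was at 125 CPM against 26.8, 25.4 and 11.3 CPM, and the use of strand in the counts, which would separate it from Has2, is not given in the sources used here. Both atypical chemokine receptors among the leading genes, which bind chemokines without classical signalling, were enriched, Ackr2 with a log2 ratio of 2.31 and Ackr3 with 1.70, the latter at 303 CPM against 86.3, 97.7 and 91.3 CPM. The other leading genes by this rule were Dact2 (2.58), Tmem100 (2.15), Cadm3 (2.09), A230001M10Rik (2.06), Gm34567 (1.99), Adgrg2 (1.82), Plcxd3 (1.80), Cd248 and 1700019D03Rik (1.74 each), Ret (1.73), Gm15675 (1.68), Pi16 (1.63), Lrrn4cl (1.58), Emilin2 (1.51) and Uap1 (1.51). All 20 were also above the Kcnip1 and Bmper group alone in all 8 mice. No test is given, since every gene of the nuclei went with the choice of the nuclei.

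The route from glucose to hyaluronan was uneven. Uap1, which makes the UDP-linked sugar used for hyaluronan, was at 200 CPM in members against 67.3 CPM in the Kcnip1 and Bmper group, and Ugdh, which makes the other sugar of hyaluronan, at 126 against 44.6 CPM. The hyaluronan-binding proteoglycan Vcan was at 388 against 187 CPM. Gfpt1, the general form of the first enzyme, differed by -0.03 on the log2 scale, Pgm3, a later step, by 0.02, and Oga and Ogt, which remove and add the sugar on proteins, by -0.04 and -0.09. Gnpnat1, the step before Pgm3, was above the Kcnip1 and Bmper group in 8 of 8 mice, by a median of 0.33. Of the microfibril genes, Fbn1 was at 1381 against 667 CPM and Mfap5 at 454 against 171 CPM. Cd55, which protects the cell surface from complement, was at 232 against 82.0 CPM. The general fibroblast genes Pdgfra and Dcn differed by -0.02 and 0.02. Dpp4 was at 109 CPM against 24.5 CPM in the Kcnip1 and Bmper group but at 232 CPM in the Sntg1 and Nkain3 group, and so is not particular to the members.

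**Figure D2:**
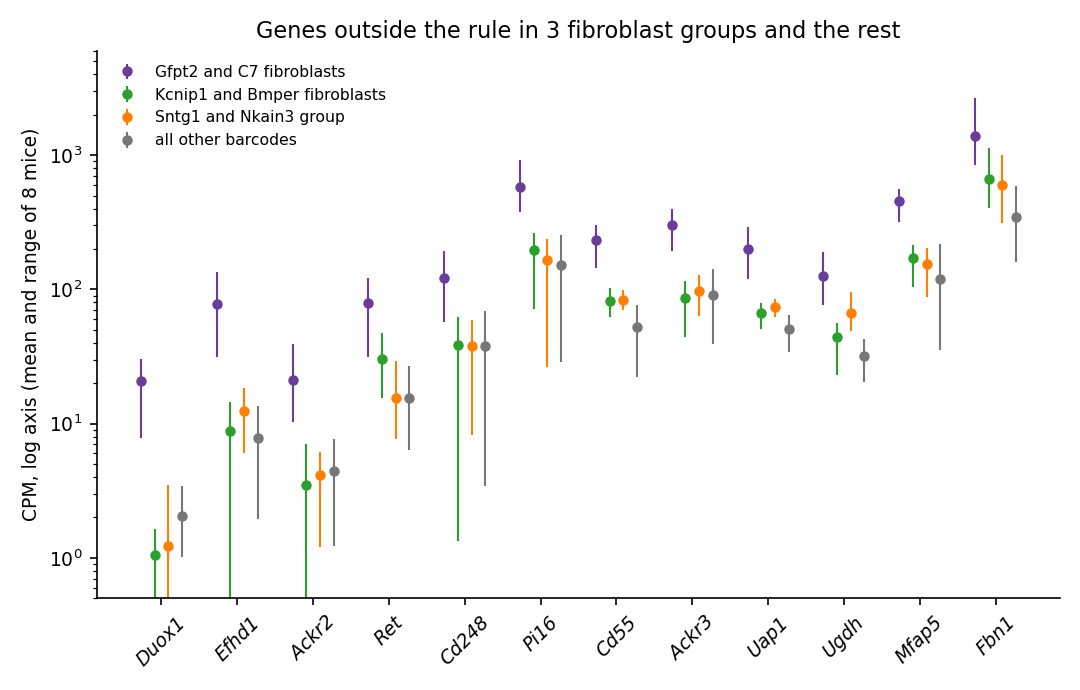
Levels of 12 genes outside the rule in the members, the other fibroblast groups and all other barcodes, in CPM on a log axis that starts at 0.5. Points are means and lines ranges over 8 mice, and a line that reaches the start of the axis ends in a mouse below 0.5 CPM. Duox1 is at 20.8 CPM in members and at most 2.05 CPM in the mean of any other group, while Fbn1 is at 1381 CPM in members and 667 CPM in the Kcnip1 and Bmper group.

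The genes lowest in members against the mean of both other groups were Grm8 (-2.51), Muc16 (-2.27), Gm29266 (-2.27), Upk1b (-2.24), Wwc1 (-2.23), Fbn2 (-2.22), Nkain2 (-2.21), Il1rapl1 (-2.19), Vtcn1 (-2.17) and Wt1 (-2.16). Muc16, Upk1b and Wt1 are markers of mesothelium, the epithelial sheet that covers the heart, and only Grm8, Fbn2 and Nkain2 were also below the Kcnip1 and Bmper group. The other low values come from the Sntg1 and Nkain3 group, which carried mesothelial transcripts. Its mesothelial markers summed to a median of 913 CPM, against 121 CPM in the rest. Its pan-fibroblast markers summed to 10409 CPM, against 16730 CPM in members, 15010 CPM in the Kcnip1 and Bmper group and 8918 CPM in the rest. The members were therefore also set against the Kcnip1 and Bmper group alone, a comparison added after seeing the data.

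Against all other barcodes, the label of fibroblast fitted the markers. The summed level of 12 pan-fibroblast markers was 1.46 to 3.62 times that of the rest, and 12 of 12 were above the rest in all 8 mice. The 14 adventitial markers summed to a median of 2.19 times the rest and the 15 activated-fibroblast markers to 1.92 times. Summed markers of other cell types were lower than in the rest, with medians of 0.56 times for cardiomyocytes, 0.75 for endothelial cells, 0.68 for macrophages, 0.60 for lymphocytes, 0.70 for pericytes and smooth muscle, 0.84 for mesothelium and 0.84 for adipocytes. The Schwann and glial list was at 2.27 times. In single mice the ratio reached 2.56 for mesothelium, 1.10 for endothelial cells and 1.12 for adipocytes. No marker of these lists was at 0 in all members, and 2291 members carried markers of another cell type beyond the limits used in an alternative count. Without them, 1359 of 1564, 1465 of 1765, 1360 of 1594 and 886 of 1106 members were left in WT replicates 4686, 4909, 5355 and 5356. In Taz-KO replicates 4685, 4910, 5300 and 5301, 76 of 115, 1142 of 1903, 957 of 1453 and 165 of 201 were left. The loss was larger in Taz-KO replicates 4685, 4910 and 5300 than in any WT mouse.

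Members made up 6.92%, 6.08%, 7.40% and 5.22% of the barcodes of WT replicates 4686, 4909, 5355 and 5356, and 3.31%, 5.24%, 4.93% and 5.16% of those of Taz-KO replicates 4685, 4910, 5300 and 5301. The groups overlapped only at WT replicate 5356 and Taz-KO replicate 4910. The mean was 6.41% ± 0.960 in WT and 4.66% ± 0.909 in Taz-KO (SD, n = 4 each), a difference of -1.75 percentage points that did not pass an exact two-sided permutation test (p = 0.0571, where 0.0286 is the smallest p that 4 against 4 mice allow). The 95% Wilson intervals of the small libraries, Taz-KO replicates 4685 and 5301, were 2.76% to 3.96% and 4.50% to 5.89% and cover counting error only. The difference was -0.74 points under the stricter rule (exact permutation test, p = 0.257) and -0.85 points with barcodes thinned to 800 UMIs (exact permutation test, p = 0.0857). As a share of the 3 fibroblast groups, members were 37.1% ± 3.58 in WT and 42.4% ± 6.01 in Taz-KO, a difference of 5.21 points (exact permutation test, p = 0.171). With barcodes thinned to 800 UMIs before the rule, this last difference turned to -9.65 points (exact permutation test, p = 0.143). With 1 level of 2000 CPM in every mouse, members were 4.89% ± 1.47 of the WT barcodes and 2.41% ± 1.01 of the Taz-KO barcodes (exact permutation test, p = 0.0571).

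**Figure D3:**
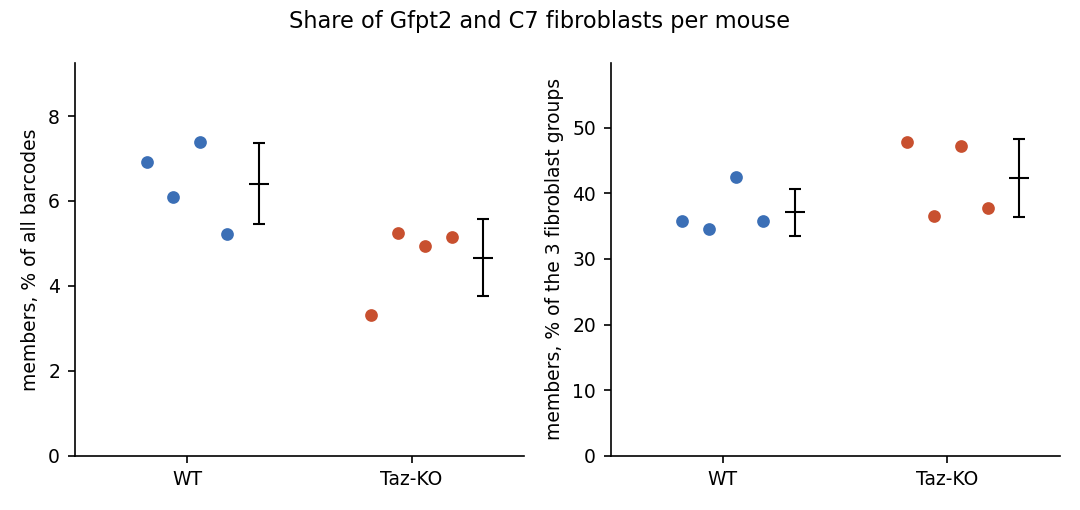
Members as a percentage of the barcodes with at least 800 UMIs and as a percentage of the 3 fibroblast groups, 1 point per mouse, with mean and SD of the 4 mice of each genotype. By barcodes the Taz-KO mice sit between 3.31% and 5.24% and the WT mice between 5.22% and 7.40%, and by fibroblasts the genotypes overlap.

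The targeted gene was lower in Taz-KO members but still detected, and did not pass the test. Taz (ENSMUSG00000009995, chrX:74281912-74290151, plus strand) was at 32.9, 36.6, 35.0 and 39.2 CPM in WT members and at 28.6, 26.2, 22.2 and 31.7 CPM in those of Taz-KO replicates 4685, 4910, 5300 and 5301. The genotypes did not overlap. The log2 difference was -0.52 (SE 0.16), with an adjusted p of 0.243 (quasi-likelihood test of edgeR, Benjamini-Hochberg over all genes tested). In the rest of the barcodes it was -0.69, with an adjusted p of 0.0338. A 3′ tag or intron read outside the deleted part would not show the deletion, and the position of the deletion is not given in the sources used here.

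Between genotypes, 83 of 15212 genes tested in the summed member counts passed an adjusted p of 0.05, a share of 0.546%. Of these, 66 (0.434%) were higher and 17 (0.112%) were lower in Taz-KO. One of the lower genes, Adamtsl3, belongs to the rule and is not counted as a result. Of the other 82, 80 did not overlap between the genotypes. That count is no separate support, since the test picks genes whose mice differ, and the share over all genes is not given here. With DESeq2 on the same sums 82 also passed, but only 14 passed in each of the 8 fits that left out 1 mouse. Mthfd2, Chac1 and Trib3 were among these 14, while Asns passed in 4, Gdf15 in 3 and Rpl3l in 2 of the 8. The median difference of all genes was near 0. In 44 of the 66 higher genes, the Taz-KO level in members was below that in the rest of the barcodes, with a median ratio of 0.427. Of these 44, 42 also passed in the rest, and 40 were higher still in cardiomyocyte barcodes. The other 22 were at or above the rest. All 16 lower genes outside the rule also passed in the rest, and 15 were higher in WT cardiomyocyte barcodes than in WT members. The shares of all genes that passed in the rest, or were higher in cardiomyocyte barcodes, are not given here. These counts are therefore a description only.

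**Figure D4:**
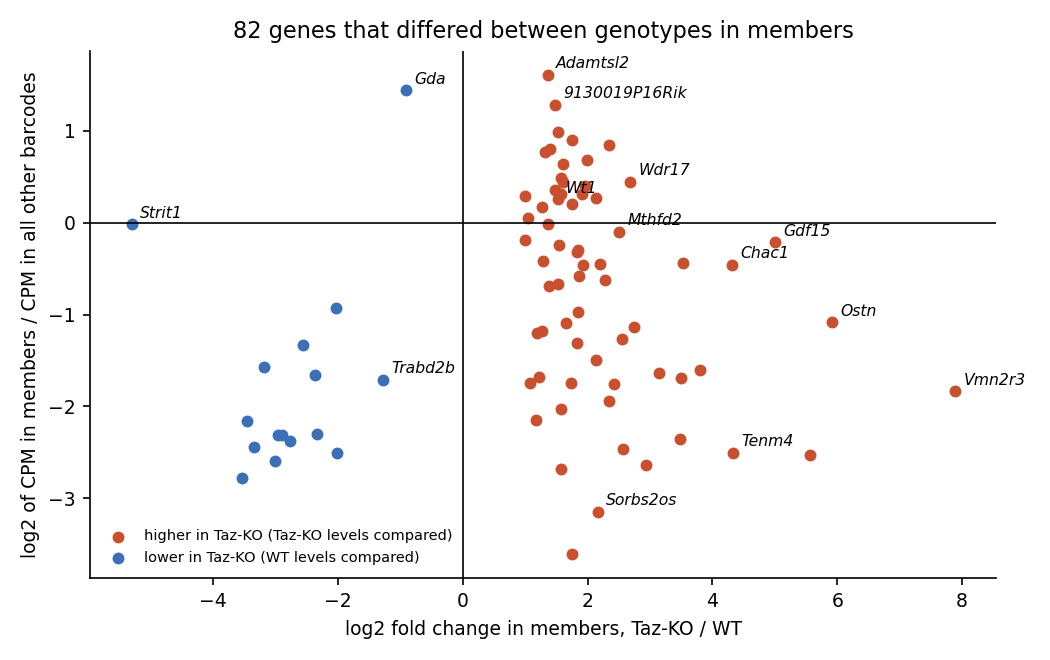
The 82 genes that passed outside the rule. The horizontal axis is the log2 difference of Taz-KO against WT in members, and the vertical axis the log2 ratio of the level in members to that in all other barcodes, in the genotype with the higher level. Of the 16 lower genes 15, and 44 of the 66 higher genes lie below 0 on the vertical axis.

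The largest group with a common role was the integrated stress response, by which cells short of amino acids or with stressed mitochondria turn on amino acid synthesis and transport through Atf4. Of 38 genes of this list that were tested, 8 rose and none fell. A further 12 were higher at an unadjusted p below 0.05, and the list's median log2 difference was 0.63. For comparison, 6.73% of all genes were higher and 3.33% lower at that unadjusted threshold. Mthfd2, the mitochondrial enzyme of one-carbon metabolism, was at 8.57 to 12.4 CPM in WT members and at 49.4, 65.3, 74.1 and 35.7 CPM in Taz-KO members. Every Taz-KO mouse lay above every WT mouse, with a log2 difference of 2.50 (SE 0.24, adjusted p = 0.00232). Chac1, which degrades glutathione, was at 0.237 to 1.10 CPM in WT and at 9.09, 8.10, 25.0 and 6.60 CPM in Taz-KO, a log2 difference of 4.31 (SE 0.57, adjusted p = 0.0115). The asparagine synthetase Asns rose from 2.43 to 28.9 CPM (log2 3.53, adjusted p = 0.0146), and Trib3, a feedback inhibitor of the pathway, from 7.96 to 30.1 CPM (log2 1.85, adjusted p = 0.00582). In Taz-KO replicate 5301 Asns was at only 3.96 CPM, which is 3 counts in that mouse. Phgdh, the first enzyme of serine synthesis, rose by 1.84 on the log2 scale with overlapping mice (adjusted p = 0.0476). Aldh1l2, of mitochondrial folate metabolism, rose by 1.27 (adjusted p = 0.0318), and the glycyl-tRNA synthetase Gars by 1.00, from 48.1 to 102 CPM (adjusted p = 0.0414). The secreted stress cytokine Gdf15 rose from 1.33 to 44.7 CPM (log2 5.00, adjusted p = 0.0147). Gdf15 was at only 3.96 CPM, also 3 counts, in Taz-KO replicate 5301, against 46.0 to 69.2 CPM in the other Taz-KO mice. At 1 level of 2000 CPM, and likewise without nuclei with markers of other cell types, Mthfd2, Chac1, Asns, Trib3 and Gdf15, 5 of the 8, still passed. Phgdh, Gars and Aldh1l2 kept log2 differences of 1.94, 1.01 and 1.21 at that level and of 1.94, 1.01 and 1.17 without those nuclei. With the series of the mouse numbers (by their first digits) as a term, a fit added after seeing the data, 4 of the 8 passed, and Gdf15, Phgdh, Gars and Aldh1l2 did not, with log2 differences of 5.01, 1.82, 1.00 and 1.24 and adjusted p of 0.0684, 0.112, 0.0806 and 0.0591.

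The same list differed more in the rest of the heart. Its median log2 difference was 1.24 in all other barcodes and 0.61 in the Kcnip1 and Bmper group. Asns reached 39.0 CPM, Mthfd2 60.0 CPM and Trib3 59.0 CPM in the Taz-KO rest, each above the Taz-KO mean of the members. Gdf15 was at 51.9 CPM in the Taz-KO rest but at 27.8 CPM in Taz-KO cardiomyocyte barcodes, below its 44.7 CPM in members. How much of the stress transcripts in members came from RNA of other cells was not tested, and after a share of 0.2 of the members' UMIs was subtracted in the profile of the barcodes with the fewest UMIs, 4 genes passed in all, among them Mthfd2 at a log2 difference of 2.19 (adjusted p = 0.0231). Gdf15, Chac1, Asns and Trib3 kept differences of 4.53, 4.38, 3.26 and 1.48 with adjusted p of 0.105, 0.156, 0.108 and 0.0501, and Phgdh, Aldh1l2 and Gars had 1.39, 1.02 and 0.82. The subtracted profile came from the 10% of deposited barcodes with the fewest UMIs, 0 to 48 of them members in a mouse. These are not known to be empty droplets, so the subtraction does not measure RNA from other cells.

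Chac1 (chr2:119351229-119354381, plus strand) was the called gene of the stress response list whose promoter held the CEBP and ATF letters. Its window, chr2:119350992-119351291 on the plus strand, is shown with the motif in capitals.
Chac1: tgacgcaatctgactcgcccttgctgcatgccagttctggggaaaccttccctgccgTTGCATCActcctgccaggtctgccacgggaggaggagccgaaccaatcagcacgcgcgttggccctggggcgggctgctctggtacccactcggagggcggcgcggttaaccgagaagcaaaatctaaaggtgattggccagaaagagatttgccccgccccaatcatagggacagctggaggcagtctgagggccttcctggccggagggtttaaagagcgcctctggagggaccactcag
TTGCATCA lies 193 bases before the start. Of 35 genes of the list found in the promoter table, 9 held TTGCATCA (Atf3, Chac1, Pycr1, Slc7a11, Slc1a4, Got1, Nupr1, Fgf21 and Aars), against 0.895% of all promoters. Among the called genes outside the rule, it was in 2 of 43 higher genes with a promoter entry (Chac1 and Gm11149) and in 0 of 11 lower ones. The match is of letters only.

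Most of the largest differences outside the stress list belonged to genes that were higher in cardiomyocyte barcodes. Vmn2r3, annotated as a vomeronasal receptor, rose from 0.168 to 40.7 CPM in members (log2 7.89, adjusted p = 1.43e-04) and from 0.197 to 145 CPM in the rest. Tenm4, a cell adhesion teneurin, rose from 6.65 to 143 CPM (log2 4.33, adjusted p = 9.55e-05) and was at 1427 CPM in Taz-KO cardiomyocyte barcodes. Ostn, a secreted peptide also called musclin, rose from 0.192 to 11.9 CPM in members, with 25.2 CPM in the Taz-KO rest. Gm41481, Tex22, Tfcp2l1, Ptprt, Ankrd45, Btbd16, Atcay and Extl1 rose as well, by 5.56, 3.80, 3.49, 3.49, 3.14, 2.94, 2.75 and 2.55 on the log2 scale. On the lower side, Rpl3l, the ribosomal protein of heart and skeletal muscle, fell from 46.7 to 7.16 CPM (log2 -2.57, adjusted p = 0.0211), with 204 CPM in WT cardiomyocyte barcodes. Strit1, a micropeptide that activates the calcium pump of muscle, was at 9.60, 17.0, 14.7 and 3.51 CPM in WT members and at 0, 0.186, 0.546 and 0 CPM in Taz-KO members, where the zeros of replicates 4685 and 5301 allow up to 3.90 and 3.96 CPM. Trabd2b, a membrane protease that cleaves Wnt proteins, fell from 106 to 45.8 CPM (log2 -1.27, adjusted p = 0.0116) and was at 675 CPM in WT cardiomyocyte barcodes. Scn4a, Myot and Ogdhl fell by 3.19, 2.37 and 2.03 on the log2 scale. Gm24474 fell from 28.7 to 3.51 CPM, and the other named lower genes were the non-coding or uncharacterised Gm26862, Gm10635, Gm20757, Gm19689, 2310020H05Rik, Rmst, Gm35041 and Gm36372. Without nuclei with markers of other cell types, Gm10635, Scn4a, Myot, Gm35041, Ogdhl and Gm36372 kept log2 differences of -3.12, -3.08, -2.12, -2.03, -1.86 and -1.64. None of them passed there, with adjusted p of 0.0521 to 0.116. Ostn, Ankrd45 and 2310020H05Rik have no value there. At 1 level of 2000 CPM, Gm19689, Rmst, Gm35041, Ogdhl and Gm36372 did not pass, with log2 differences of -3.02, -2.49, -2.24, -1.85 and -1.97 and adjusted p of 0.0961 to 0.232. With the series of the mouse numbers as a term, Rpl3l, Scn4a, Myot, Ogdhl, Rmst, Gm35041, Gm19689, Gm10635 and 2310020H05Rik kept log2 differences of -3.62 to -2.07 and Atcay one of 2.78, but none passed, with adjusted p of 0.0507 to 0.0896.

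Of the 22 higher genes at or above the rest, 18 were higher still in the Sntg1 and Nkain3 group of Taz-KO mice, the group that carried mesothelial transcripts. The share of all genes that were higher in that group is not given here. All 6 mesothelial markers were higher at an unadjusted p below 0.05 with a median log2 difference of 1.83, and 2 passed. Wt1, a transcription factor of mesothelium, was at 7.31 to 12.7 CPM in WT and 24.7 to 42.3 CPM in Taz-KO members (log2 1.52, adjusted p = 0.0147) and at 115 and 229 CPM in the Sntg1 and Nkain3 group. Upk1b rose by 1.90 (adjusted p = 0.0264). Wdr17 was at 26.1, 43.1, 48.7 and 50.8 CPM in WT and at 217, 171, 345 and 412 CPM in Taz-KO members (log2 2.68, SE 0.31, adjusted p = 0.00582), with 351 and 1538 CPM in the Sntg1 and Nkain3 group. Pkhd1l1 was at 35.0 to 47.2 CPM in WT and 118 to 180 CPM in Taz-KO members (log2 1.60, adjusted p = 0.00582), with 395 and 791 CPM in that group. The summed mesothelial markers were at 34.6 to 90.8 CPM in WT members and 210 to 329 CPM in Taz-KO members, against 65.3 to 130 and 114 to 365 CPM in the rest. Without the nuclei that carried markers of another cell type, 19 of the 22 could be tested and only Adamtsl2 passed. Wt1, Pkhd1l1 and Wdr17 were then at log2 differences of 0.66, 0.71 and 1.18 with adjusted p of 0.551, 0.731 and 0.155. Wt1 and Upk1b are among the mesothelial markers by which those nuclei were left out, so their values there do not test their difference. The uncharacterised 9130019P16Rik, at a log2 difference of 1.47 in all members (adjusted p = 0.0118), had 1.35 there, with an adjusted p of 0.0544. At 1 level of 2000 CPM, Wdr17, Wt1, Upk1b and 9130019P16Rik did not pass either, with log2 differences of 2.04, 0.87, 1.31 and 1.26 and adjusted p of 0.227, 0.288, 0.251 and 0.148.

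Adamtsl2, a secreted glycoprotein that binds fibrillin microfibrils and latent TGF-beta binding protein, was thus the gene of these 19 that passed with and without the nuclei that carried other markers. It lies at chr2:27079379-27108981 on the plus strand. It was at 70.9, 43.8, 77.1 and 51.5 CPM in WT and at 135, 154, 186 and 189 CPM in Taz-KO members. The genotypes did not overlap, and the log2 difference was 1.36 (SE 0.21, adjusted p = 0.0207). Without nuclei with other markers it was 1.53 (adjusted p = 0.0213), and at 1 level of 2000 CPM it was 1.52 (adjusted p = 0.0289). Adamtsl2 was also higher in the Kcnip1 and Bmper group, at 42.5 and 142 CPM (log2 1.67, adjusted p = 0.00563), so the difference was not limited to members. It passed in 5 of the 8 fits that left out 1 mouse, with adjusted p from 0.0253 to 0.0986. Within the members it was at 127 CPM in nuclei with C7 alone and 69.6 CPM in nuclei with Gfpt2 alone, and the members of Taz-KO replicates 4910 and 5300 held more C7 than those of most other mice. In the members without a C7 UMI its log2 difference was 1.56 with an adjusted p of 0.0715, and 63 genes passed in all.

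The lower gene at or above the rest was Gda, guanine deaminase of purine breakdown (chr19:21391307-21473445, minus strand). Gda was at 142, 118, 156 and 146 CPM in WT and at 88.3, 81.9, 68.1 and 80.6 CPM in Taz-KO members, with no overlap (log2 -0.90, SE 0.15, adjusted p = 0.0286). In the rest it was at 51.7 and 31.7 CPM. Without nuclei with other markers the log2 difference was -0.87 with an adjusted p of 0.0910. At 1 level of 2000 CPM it was -0.67 with an adjusted p of 0.233, and Gda passed in 2 of the 8 fits that left out 1 mouse.

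Of 27 gene lists, 23 had no gene outside the rule that passed in edgeR. In these 23 lists, 61 of 401 genes tested had an unadjusted p below 0.05, against 10.1% of all genes, and 8 passed with DESeq2, against 2.1% of all genes. Their median log2 differences ran from -0.47 to 0.65, and both ends belonged to fibroblast states. All 14 adventitial markers were lower in Taz-KO members, 5 of them at an unadjusted p below 0.05 and 1 with DESeq2. At 1 level of 2000 CPM, 14 of 14 were still lower, with a median of -0.32 and 3 at that threshold. Pi16 was at 921, 661, 802 and 379 CPM in WT and at 559, 378, 541 and 380 CPM in Taz-KO members, which overlap (log2 -0.67, adjusted p = 0.423). Limch1 and the guidance molecule Sema3c did not overlap, with log2 differences of -0.80 (adjusted p = 0.108) and -0.55 (adjusted p = 0.197). The list's median was -0.36 in the Kcnip1 and Bmper group and -0.22 in the rest. The 10 cardiomyocyte markers were all at lower values in Taz-KO members too, 0 of them at an unadjusted p below 0.05 with edgeR or passing with DESeq2, with a median of -0.41 and, at 1 level of 2000 CPM, of -0.56. Their summed level was 3604 to 13034 CPM in WT members and 1631 to 9642 CPM in Taz-KO members, and its part in the differences was not tested. In the opposite direction, 13 of 15 activated-fibroblast markers were higher in Taz-KO, 7 of them at an unadjusted p below 0.05 and 1 with DESeq2. Of 14 tested at 1 level of 2000 CPM, 4 were lower, with a median of 0.72. Postn, the matrix protein periostin, was at 57.3, 96.3, 116 and 64.8 CPM in WT and at 266, 229, 194 and 120 CPM in Taz-KO members. The mice did not overlap, and the log2 difference was 1.20 (adjusted p = 0.120). This list's median was 0.68 in the Kcnip1 and Bmper group and 0.43 in the rest.

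**Figure D5:**
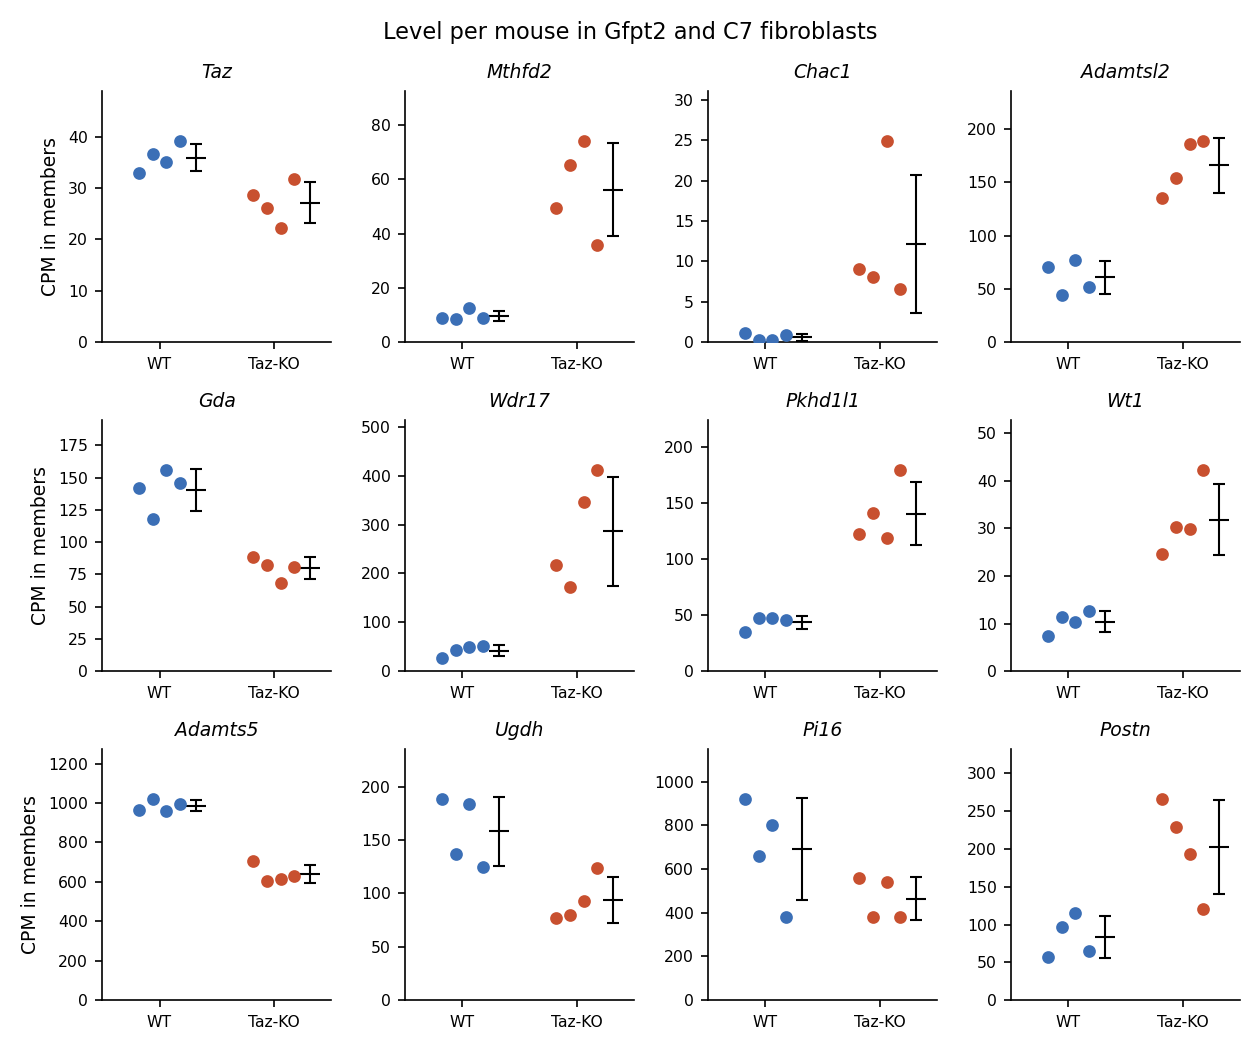
Levels of 12 genes in the members of each mouse, in CPM, 1 panel per gene, with the mean of each genotype. Mthfd2, Chac1, Adamtsl2, Gda, Wdr17, Pkhd1l1 and Wt1 passed an adjusted p of 0.05, while Taz, Adamts5, Ugdh, Pi16 and Postn did not.

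Other lists held few or no genes that passed, though some held more genes at an unadjusted p below 0.05 than the 6.73% of all genes that were higher and the 3.33% that were lower. Among 24 hyaluronan and hexosamine genes outside the rule, 3 were lower and 2 higher at an unadjusted p below 0.05, and 1 passed with DESeq2. Ugdh was at 189, 137, 184 and 125 CPM in WT and at 76.6, 80.2, 93.4 and 124 CPM in Taz-KO members, the lowest WT and highest Taz-KO mouse nearly touching (log2 -0.85, adjusted p = 0.129). Uap1 and Tnfaip6, which cross-links hyaluronan, were at log2 differences of -0.61 and -0.75. Adamts5, a protease that cleaves versican, was at 967, 1021, 962 and 995 CPM in WT and at 707, 604, 617 and 629 CPM in Taz-KO members, tight within and separate between genotypes (log2 -0.71, adjusted p = 0.0507). At 1 level of 2000 CPM its difference was -0.42 with an adjusted p of 0.540. Among 22 complement genes outside the rule, C2 and Cfb, which supply the proteases of the classical and alternative pathways, were at log2 differences of 1.53 (adjusted p = 0.0703) and 1.09, and Cd55 at -0.55. Of 43 fibroblast transcription factors, 9 were lower and 2 higher at an unadjusted p below 0.05, with Prrx1 at -0.57 (adjusted p = 0.189) and Tbx20 at 0.64 (292 to 481 CPM, adjusted p = 0.164). Of 27 collagens, 1 was lower and 2 were higher at that threshold, and Col3a1 was at 1110 CPM in WT and 1189 CPM in Taz-KO members. Of 50 growth factors and receptors, Gdf15 passed, 2 passed with DESeq2, and 9 were lower and 5 higher at an unadjusted p below 0.05. Of 27 microfibril genes outside the rule, Adamtsl2 passed, and 23 heat shock genes had a median of 0.18. For 11 cardiolipin genes, the pathway of tafazzin, the median was -0.18, with 1 gene lower at an unadjusted p below 0.05.

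Some genes varied more within the WT group than between genotypes. The clock activator Arntl was at 10.1, 33.8, 192 and 295 CPM in WT replicates 4686, 4909, 5355 and 5356, and the clock output gene Dbp ran the other way, at 145, 100, 6.50 and 3.20 CPM. In Taz-KO replicates 4685, 4910, 5300 and 5301, Arntl was at 15.6, 32.0, 55.9 and 76.6 CPM and Dbp at 130, 64.0, 51.2 and 23.8 CPM. The fibrillin gene Fbn1 lay in the same order within WT, at 862, 1252, 2379 and 2687 CPM, against 841 to 1105 CPM in Taz-KO, so its log2 difference of -0.96 did not pass (adjusted p = 0.288). The time of sampling is not in the labels, and its part was not tested. With the series of the mouse numbers as a term, 47 genes passed, 42 of them among the 83. That term put WT replicates 5355 and 5356 in 1 series with Taz-KO replicates 5300 and 5301, so it does not take out a difference between these pairs. Of 25 clock genes, 1 was higher and 1 lower at an unadjusted p below 0.05, and none passed with edgeR or DESeq2.

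Whether the genotype difference in members departed from that in other nuclei was tested as an interaction with the mouse as a block. Against the Kcnip1 and Bmper group, 10 of 16618 genes passed (0.0602%), and 961 had an unadjusted p below 0.05. Rai14, an actin-binding protein, was at 62.6 CPM in WT and 50.1 CPM in Taz-KO members but at 28.0 and 37.1 CPM in the Kcnip1 and Bmper group, a difference of differences of -0.88 on the log2 scale (adjusted p = 4.92e-04). Pde8a, a cyclic AMP phosphodiesterase, was at 174 and 119 CPM in members and at 71.3 and 69.4 CPM in that group (-0.66, adjusted p = 0.00130). The adhesion molecule Sdk1 was at 539 and 365 CPM against 124 and 120 CPM (-0.51, adjusted p = 0.0249). By their means, these 3 genes were above the Kcnip1 and Bmper group in WT and closer to it in Taz-KO. Within members alone, Rai14, Pde8a and Sdk1 did not differ by genotype in edgeR's test (adjusted p = 0.433, 0.294 and 0.217). Taz-KO replicate 5301, at 62.1, 176 and 475 CPM, lay within the WT range of members for each. In the opposite sense, Pawr, a pro-apoptotic protein, was at 18.1 and 41.4 CPM in members and at 31.6 and 39.7 CPM in that group (0.75, adjusted p = 0.00495), and the G protein subunit Gng2 at 24.7 and 41.2 CPM against 43.2 and 43.7 CPM (0.61, adjusted p = 0.0400). By their means, both were below the Kcnip1 and Bmper group in WT and near its level in Taz-KO. Within members alone, neither passed in edgeR's test (adjusted p = 0.0701 for Pawr and 0.125 for Gng2). The threshold on the 6 genes was lower in the Taz-KO libraries, and its part in these interactions was not tested.

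Against the Sntg1 and Nkain3 group, 14 of 16133 genes passed (0.0868%) and 1406 had an unadjusted p below 0.05. The alarmin Il33 was at 35.9 and 41.2 CPM in members and at 37.6 and 83.9 CPM in that group (-1.07, adjusted p = 0.0175). Sema3c was at 470 and 339 CPM in members and at 264 and 374 CPM in that group (-1.03, adjusted p = 0.0302), and Arhgap20 at 74.4 and 32.6 CPM against 33.7 and 28.7 CPM (-1.06, adjusted p = 0.0380). The antiviral gene Oas2 was at 11.5 and 24.9 CPM against 25.8 and 26.8 CPM (1.18, adjusted p = 0.0302), and the macrophage marker Adgre1 at 37.1 and 55.8 CPM against 83.8 and 67.1 CPM (1.07, adjusted p = 0.0380).

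Against all other barcodes, a comparison added after seeing the data, 324 of 18165 genes passed (1.78%), 194 with a lower and 130 with a higher difference in members, and 2854 had an unadjusted p below 0.05. Of the 38 genes of the stress response list, 17 passed, all 17 with the smaller difference in members. The amino acid transporter Slc7a5 was at 3.66 and 15.4 CPM in WT and Taz-KO members and at 1.94 and 29.8 CPM in the rest (-2.06, adjusted p = 4.60e-04), and Slc7a1 at 50.2 and 62.7 CPM against 39.3 and 111 CPM (-1.21, adjusted p = 1.30e-04). Trib3 and Gars, which rose in members, rose by less than in the rest, with differences of differences of -1.67 and -0.71. Of the list of 56 growth factors and receptors 3 genes passed, namely Fgf7, Angpt1 and Pdgfd (0.77). Of 37 TGF-beta and BMP genes 3 passed, namely Inhba, Tgfb2 and Smad6 (0.67). Fgf7, an epithelial growth factor, was at 23.7 and 20.4 CPM in members and at 11.3 and 44.9 CPM in the rest (-2.14), and the activin subunit Inhba at 30.6 and 31.3 CPM against 10.8 and 28.2 CPM (-1.62). Tgfb2 was at 116 and 101 CPM in members and at 68.8 and 106 CPM in the rest (-0.89). Angpt1, a ligand that steadies vessels, was at 157 and 117 CPM in members and at 285 and 102 CPM in the rest (0.92). Fgf7, Inhba, Tgfb2 and Angpt1 passed in each of the 8 fits that left out 1 mouse. In WT mice Fgf7 and Inhba were thus higher in members than in the rest, and in Taz-KO mice Fgf7 was higher in the rest.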

How the data were processed

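Hearts of 4 WT and 4 Taz-KO mice were measured by single-nucleus RNA-seq, and each mouse gave its own library. The values the authors deposited are raw counts of UMIs for each gene in each barcode, introns included, from Cell Ranger 6.0.1 on mm10 (names from the submitters' processing notes), with 32272 genes. Ambient RNA and doublets had not been removed from them, and no doublet caller was run here. The members and the gene lists were chosen with earlier results of these data known. The number of members rests on UMIs and gene levels per barcode, and barcodes with fewer than 800 UMIs were left out, as were mitochondrial genes.

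Counts were summed per mouse over the members and tested in R 4.3.3 with edgeR 4.0.16 (TMM, filterByExpr, robust quasi-likelihood F test, limma 3.58.1), with Benjamini-Hochberg adjustment over all genes tested and a call at an adjusted p of 0.05. Since nuclei of 1 mouse are not replicates, this replaces the test over nuclei in the methods of the study. The study's test adjusted for the individual mouse as a latent variable. TMM factors ran from 0.946 to 1.05. DESeq2 1.42.0 was the other tool. Interactions held the mouse as a block. CPM are summed UMIs of a gene per 1000000 member UMIs outside mitochondrial genes, ± is the SD over mice, and log2 ratios of identity carry a pseudocount of 1 CPM. A count of 0 allows up to 3 counts. Shares were compared with exact two-sided permutation tests. The labels give separate mice per sample. The fit was tested on simulated data. Python 3.11.15, numpy 2.4.6, scipy 1.17.1 and pandas 2.3.3 were used.

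Genes named are Taz, the genes of the rule, the 20 highest and 10 lowest by ratio to the other fibroblast groups, up to 15 per direction by size among called genes with no overlap of mice, up to 10 per interaction, and genes of the lists. Genes of the interaction with the rest, and the genes with C7 or Gfpt2 alone, were chosen after their values were seen. Alternatives were DESeq2, RLE size factors, library totals, no filter on low counts, each mouse left out, and both small Taz-KO libraries left out. Others were a stricter rule (an enrichment of 5 and 6 UMIs) and no nuclei with markers of other cell types (enrichment above 2 with at least 3 UMIs). None of the 5% of nuclei with the most UMIs and barcodes thinned to 800 UMIs were also used. The last were a subtracted profile of the barcodes with the fewest UMIs, and the study's thresholds of 0.001 and 0.58. Members without a C7 UMI, members with a Gfpt2 UMI, the series of mouse numbers as a term, the interaction with the rest, the CEBP and ATF motif, the comparison with the Kcnip1 and Bmper group alone and 1 level of 2000 CPM were added after seeing the data.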

Additional observations from a re-analysis of the deposited data

Results flagged for a closer look

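Of 100 groups of 4 mice examined for 1 mouse far from the others, 9 held one, and chance alone flags about 1 in 20. Members were 3.31% of the barcodes of Taz-KO replicate 4685, well below the other Taz-KO mice, and 42.5% of the 3 fibroblast groups in WT replicate 5355, well above the other WT mice. Chac1 was at 25.0 CPM in Taz-KO replicate 5300, above the other Taz-KO mice, and Asns at 3.96 CPM in Taz-KO replicate 5301, below them. Among WT mice, Mthfd2 was highest in replicate 5355, at 12.4 CPM, Trib3 lowest in replicate 5356, at 6.71 CPM, and Scn4a highest there, at 3.35 CPM. Gm41481 was found in the WT mice only in replicate 4909, at 0.148 CPM. Myot was at 0 CPM in Taz-KO replicate 5301, where 3 counts are 3.96 CPM.

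The genotype difference departed from that in the Kcnip1 and Bmper group, by edgeR's test of the interaction, for Stac2 (-2.37, adjusted p = 0.0249), Rorb (-1.47), Gm46323 (1.42), Rai14 (-0.88), Pawr (0.75), Gria3 (0.69), Pde8a (-0.66), Gng2 (0.61), Pdzrn4 (-0.60) and Sdk1 (-0.51), all on the log2 scale. Of these, Rai14, Pawr and Pde8a passed in 7 of the 8 fits that left out 1 mouse, and the others in 3 to 5. Stac2 was at 3.54 and 3.71 CPM in WT and Taz-KO members and at 0.502 and 2.92 CPM in that group.

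It departed from that in the Sntg1 and Nkain3 group for Upk1b (1.21, adjusted p = 0.0425), Oas2 (1.18), Btk (1.17), Aoah (1.17), Plekha7 (1.15), Wt1os (1.14), Adgre1 (1.07), Il33 (-1.07), Arhgap20 (-1.06) and Rnf180 (1.05). Il33 passed in 5 of the 8 fits that left out 1 mouse and the others in 2 or 3. Upk1b, Plekha7 and Wt1os were at 70.9, 51.9 and 60.8 CPM in the WT nuclei of the Sntg1 and Nkain3 group and at 5.40, 6.44 and 4.64 CPM in WT members.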

How the results depend on the processing

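No analysis paired by replicate number was possible, because the WT and Taz-KO samples share none. With the series of mouse numbers as a term, chosen after seeing the data because clock genes followed it, the 83 genes that passed became 47, of which 42 were among the 83. The labels do not say what the series mark. Taz-KO replicates 5300 and 5301 and WT replicates 5355 and 5356 shared 1 series. Any difference between these pairs other than genotype cannot be told apart from genotype in that fit. The term left 41 higher and 6 lower genes. Of the named genes, 15 kept their direction only, namely Gdf15, Phgdh, Gars, Aldh1l2, Gda, Atcay, Rpl3l, Scn4a, Myot, Ogdhl, Rmst, Gm35041, Gm19689, Gm10635 and 2310020H05Rik. The 83 genes that passed became 320 with DESeq2, 164 with no filter on low counts and 31 with the stricter rule. They became 38 without nuclei that carried other markers and 25 at 1 level of 2000 CPM (chosen after seeing the data). With the profile of the barcodes with the fewest UMIs subtracted 4 passed, and with barcodes thinned to 800 UMIs 1. At an adjusted p of 0.001 with an absolute log2 difference above 0.58, 2 passed. Leaving out 1 mouse gave 17 to 149, with 39, 37 and 34 without WT replicates 4686, 4909 and 5355, 17, 18 and 149 without Taz-KO replicates 4910, 5300 and 5301, and 103 without both small libraries. Of 831 repeats in which a named gene could be tested, 608 kept direction and call, 223 kept direction only and 0 reversed. With barcodes thinned to 800 UMIs only 6 of 41 genes could be tested. With the subtracted profile there were 29, and at 1 level of 2000 CPM 33. A gene that did not pass in the main fit, such as Taz, counts as kept where it still did not pass. Most repeats share the same mice.

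The 10 genes of the interaction with the Kcnip1 and Bmper group became 133 with no filter and 0 to 35 without 1 mouse. The 14 with the Sntg1 and Nkain3 group became 67 with DESeq2, 419 with no filter and 0 to 222 without 1 mouse. The zeros came without Taz-KO replicate 4910 or, for the second, also 5300, where edgeR gave 864, 948 and 1008 genes at an unadjusted p below 0.05 and DESeq2 was not run. The 324 with the rest became 635 with DESeq2 and 92 (without Taz-KO replicate 4910) to 725 (without 5301). The difference in the share of barcodes ran from -2.14 to -1.30 points without 1 mouse. That in the share of fibroblasts ran from 3.36 to 7.14 and was -9.65 with thinned barcodes. The causes of these changes were not tested. The reading of the rule in which Ryr2 and Ttn have at most 1 UMI gave no value, since 7 mice then had 0 members. Taz-KO replicates 4685 and 5301, with 115 and 201 members, limit low genes, since 3 counts are 3.90 and 3.96 CPM there.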
